A study of Mus musculus with 6 samples.

Results

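mTORC1 is the protein kinase complex through which growth factors and amino acids drive protein synthesis, and cells hold it back through several brakes. Sestrins bind the GATOR2 complex and keep the RAG GTPases from activating mTORC1 when amino acids, leucine in particular, are scarce. The TSC1 and TSC2 proteins switch off RHEB, the GTPase that activates mTORC1, and DDIT4 (also called REDD1) and the related DDIT4L act through them. DEPTOR binds the kinase itself. The 4E-BP proteins, encoded by Eif4ebp1 and Eif4ebp2, are substrates of mTORC1 that block the cap-binding factor eIF4E until they are phosphorylated. BCR-ABL signalling feeds the same kinase in leukaemia cells.

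The transcripts of these 10 brakes were followed among 22180 genes with a probe set of their own: the sestrin genes Sesn1, Sesn2 and Sesn3, then Ddit4, Ddit4l, Tsc1, Tsc2, Deptor, Eif4ebp1 and Eif4ebp2. Their names were listed with earlier results of these data known, and the probe set that stands for each gene was chosen by its brightness, the mean over all 6 arrays, which does not use the difference between the groups. All 10 had a probe set of their own, Deptor had 2 and the others 1. The cells were mouse B-ALL cells (acute lymphoblastic leukaemia of the B lineage) positive for BCR-ABL. In 3 samples they received DHA, dihydroartemisinin, into which artemisinin antimalarials are converted in the body, at 312 nM for 4 h, and in the other 3 only the vehicle, dimethyl sulphoxide, for the same time. Per the labels' growth protocol, the lines used carried p185 BCR-ABL, with or without the T315I mutation, and lacked Arf or p53. The sources used here do not give the line behind these arrays. Nothing in the labels says that the samples were separate cultures, so the spread behind each p-value may be technical.

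Values are log2 intensities, on which equal differences are equal ratios. Array medians lay between 5.25 and 5.31. Differences were tested with limma, a linear model with moderated variances, over 15526 genes, and a gene was called where its p, adjusted by Benjamini and Hochberg's method, was 0.05 or less. Of 42 listed markers of B-lineage and other cells, 29 were tested and 0 called. Of the B-cell precursor markers, 11 of 14 were tested, with Cd79a at 12.70 with vehicle and 12.72 with DHA. Vpreb1 was dim, at 4.78 and 4.79, and Dntt differed by -0.23 with overlapping groups. Groups did not overlap in 4 of the 11, 1 higher and 3 lower, against 7.64% higher and 8.19% lower over all genes. Rag2, needed to rearrange antigen receptor genes, differed by -0.53 (SE 0.15; limma adjusted p = 0.253), and Cd24a, Igll1 and Ebf1 differed by -0.16, -0.12 and 0.13. Cd3e of T cells averaged 4.22 and 4.33 and lay under the filter on dim genes (4.52). Of the myeloid markers, Lyz2 averaged 4.71 and 4.74 and Mpo 4.57 and 4.62, while Cd68 was brighter, at 7.44 and 7.34. Of the stromal markers, Pecam1 averaged 9.34 and 9.52 with groups that did not overlap. The others, Cdh5, Col1a1, Col1a2, Col3a1 and Pdgfrb, were dimmer and their groups were not apart. Their vehicle means ran from 4.96 for Pdgfrb to 6.27 for Col1a1. The part of these markers in the results was not tested. In bulk samples, a change of level in every cell and a change in the make-up of the cells cannot be told apart.

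Among the 10 genes, Sesn2 alone passed the test, and it was higher after DHA. Of all tested genes, 0.0837% were called higher and 0.00644% lower, against 1 and 0 of the 10. In median-centred values the calls over all genes moved from 13 higher and 1 lower to 41 and 11. Groups did not overlap in 7 of the 10, 4 of them higher after DHA (Sesn2, Ddit4, Eif4ebp1 and Tsc1) and 3 lower (Sesn1, Sesn3 and Eif4ebp2). Over all genes, 7.64% had every DHA array above every vehicle array and 8.19% had every one below. As the names were listed with results known, these counts describe the 10 genes and support nothing about them. The median log2 fold change of the 10 was 0.0017 and that of all genes 0.0027, with 5 higher and 5 lower, while the median size regardless of sign was 0.17 against 0.067.

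**Figure D1:**
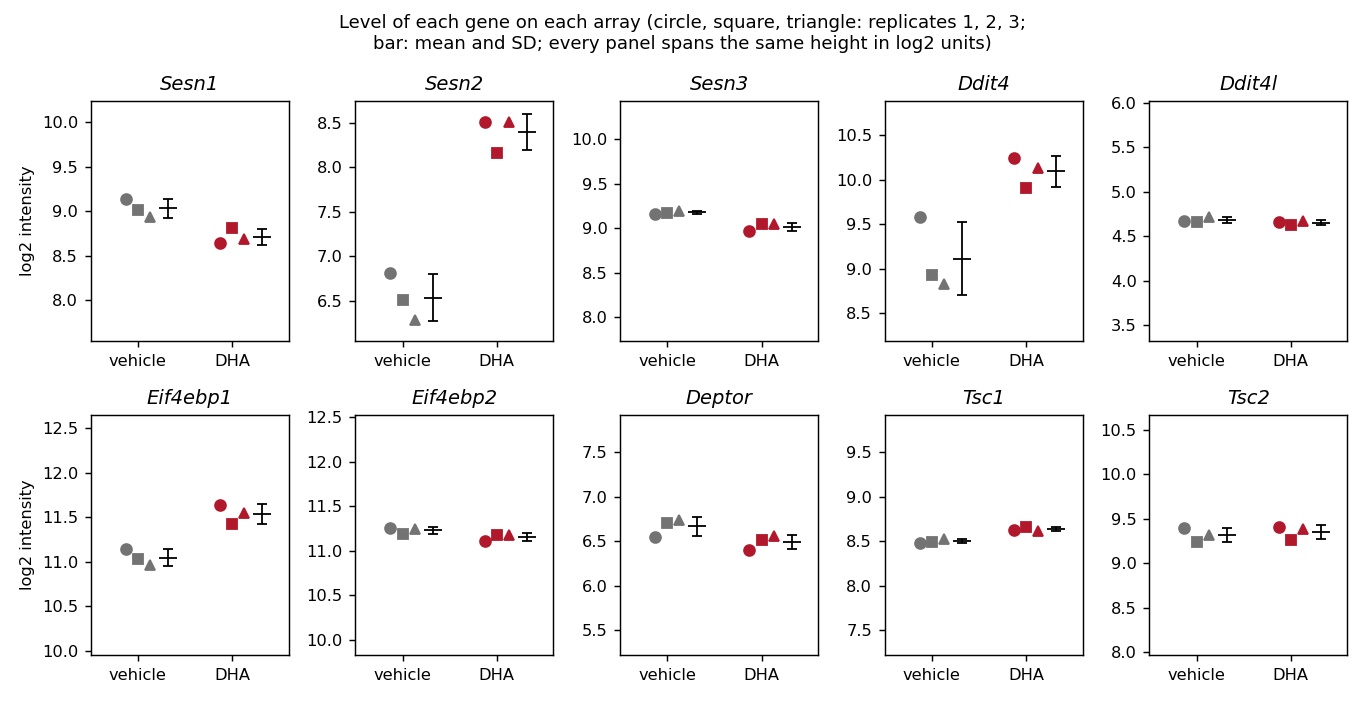
Log2 intensity of the 10 genes on each of the 6 arrays (grey: vehicle, red: DHA; circle, square and triangle: replicates 1, 2 and 3; bars: mean and SD, n = 3), with panels of equal height in log2 units. Sesn2 and Ddit4 show the widest separation, and Ddit4l, Tsc2 and, narrowly, Deptor overlap.

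Sesn2, which encodes a sestrin that binds leucine, was at 6.81, 6.51 and 6.28 in the vehicle arrays and at 8.51, 8.17 and 8.51 in the DHA arrays. Every DHA value thus lay above every vehicle value, with 1.36 between the nearest arrays. The means were 6.53 ± 0.26 and 8.40 ± 0.20 (SD, n = 3 per group), a rise of 3.64-fold (95% interval 2.83 to 4.68). On the log2 scale it was 1.86 (SE 0.15; limma adjusted p = 0.0234), the 4th largest rise of the 15526 genes. Sesn2 lost its call when any array but DHA replicate 2 was left out, although its change stayed between 1.74 and 2.00. Without vehicle replicate 1, 2 or 3 its changes were 2.00, 1.85 and 1.74 (limma adjusted p = 0.0811, 0.239 and 0.116). Without DHA replicate 1 or 3 it was 1.81 both times (limma adjusted p = 0.302 and 0.290), and without DHA replicate 2 it was 1.98 (limma adjusted p = 0.0352). With 3 arrays against 3, an exact permutation test cannot go below p = 0.1, which Sesn2 and the other 6 non-overlapping genes each reached.

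The other sestrins lay on the opposite side. Sesn1, known as a p53 target, was at 9.14, 9.01 and 8.94 with vehicle and at 8.64, 8.81 and 8.69 with DHA. The DHA arrays were all lower, by at least 0.13, and the mean difference of -0.32 (SE 0.073, 95% interval -0.49 to -0.15) did not pass (limma adjusted p = 0.172). Its size corresponds to a level 1.25-fold lower. Sesn3, known as a target of FOXO factors, was at 9.16, 9.17 and 9.20 with vehicle and at 8.96, 9.04 and 9.04 with DHA. These groups were also apart, by 0.12, with little spread (SD 0.019 and 0.046). Its log2 fold change of -0.16 (95% interval -0.27 to -0.050) did not pass either (limma adjusted p = 0.260). Sesn1 stood 180th from the lowest change of the 15526 genes and Sesn3 1245th. Neither changed sign in any of 17 alternatives, and neither was called in any.

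Ddit4, which acts on mTORC1 through the TSC complex under hypoxia and other stress, was at 9.58, 8.93 and 8.83 with vehicle. In the DHA arrays it was at 10.24, 9.90 and 10.13. Vehicle replicate 1 stood well above the other vehicle arrays and 0.32 below the nearest DHA array. The difference of 0.98 (SE 0.20, 95% interval 0.50 to 1.46), or 1.97-fold, was the 15th largest upward difference of all genes but missed the threshold (limma adjusted p = 0.141). On leaving out 1 array it ranged from 0.84 without vehicle replicate 3 to 1.21 without vehicle replicate 1, and it passed in none of these fits (limma adjusted p from 0.0852 to 0.447). Ddit4l, its relative, was at 4.67, 4.66 and 4.72 with vehicle and at 4.66, 4.62 and 4.67 with DHA. Its mean lay just above the filter on dim genes, its groups overlapped, and its difference of -0.030 had an interval of -0.14 to 0.075 (limma adjusted p = 0.821).

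Of the 4E-BP genes, Eif4ebp1 was higher with DHA and Eif4ebp2 differed little. Eif4ebp1 was at 11.14, 11.03 and 10.96 with vehicle and at 11.64, 11.42 and 11.54 with DHA. All DHA arrays were higher, by at least 0.28, and the difference of 0.49 (SE 0.076, 95% interval 0.31 to 0.67), or 1.40-fold, narrowly missed the threshold (limma adjusted p = 0.0894). It passed in 3 of 17 alternatives. These were quantile normalization, a trended and robust variance and a filter at the 50th percentile (limma adjusted p = 0.0454, 0.0447 and 0.0496). On leaving out 1 array its difference ranged from 0.44 to 0.55, and it passed in none of these fits (limma adjusted p from 0.107 to 0.325). Eif4ebp2 was at 11.25, 11.18 and 11.25 with vehicle and at 11.11, 11.18 and 11.18 with DHA. Its groups were apart by only 0.00070, and the difference of -0.072 (95% interval -0.19 to 0.042) did not pass (limma adjusted p = 0.596).

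Differences of the TSC genes and Deptor were small. Tsc1, the stabilising subunit of the complex, was at 8.48, 8.49 and 8.53 with vehicle and at 8.62, 8.66 and 8.61 with DHA. Its groups were narrow (SD 0.024 in both) and apart, with a log2 fold change of 0.13 (95% interval 0.031 to 0.24; limma adjusted p = 0.307). Tsc2, the subunit that acts on RHEB, was at 9.40, 9.24 and 9.32 with vehicle and at 9.40, 9.26 and 9.39 with DHA. These values overlapped, and the difference was 0.034 (95% interval -0.12 to 0.19; limma adjusted p = 0.868). Deptor was at 6.55, 6.71 and 6.74 with vehicle and at 6.41, 6.52 and 6.56 with DHA on its brighter probe set. The groups overlapped narrowly, since the highest DHA array was just above the lowest vehicle array, and the difference of -0.17 (95% interval -0.34 to -0.0078) did not pass (limma adjusted p = 0.395). Its dimmer probe set gave -0.22, from 6.14 ± 0.17 to 5.93 ± 0.15 (SD, n = 3 per group; exact two-sided permutation p = 0.2 for each probe set).

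**Figure D2:**
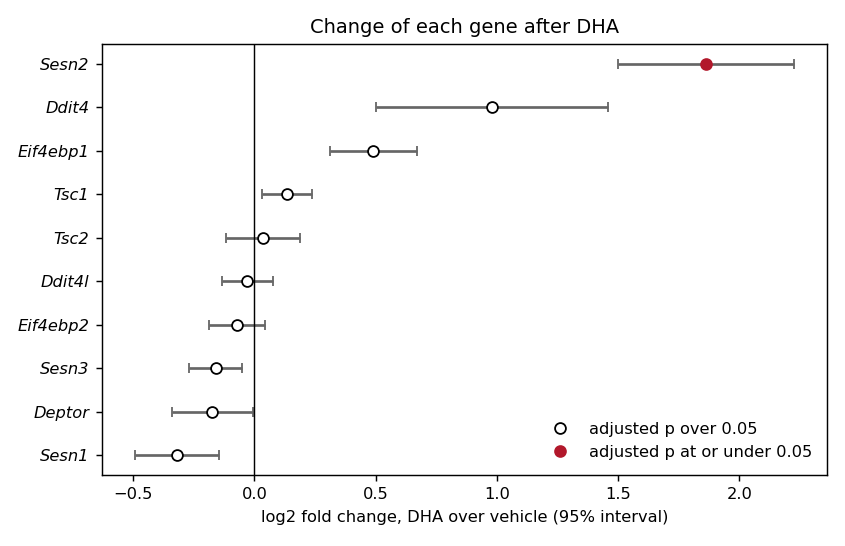
Log2 fold change (DHA over vehicle) of the 10 genes with 95% intervals from limma, ordered from the most negative to the most positive. The filled point passed the test over all genes. Sesn2 (1.86), Ddit4 (0.98) and Eif4ebp1 (0.49) lie furthest to the right and Sesn1 (-0.32) furthest to the left.

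The 3 genes with the largest upward differences shared an order among the arrays. In Sesn2, Ddit4 and Eif4ebp1, vehicle replicate 1 was the highest vehicle array and DHA replicate 2 the lowest DHA array, in 3 of 3 genes. This order was not particular to the brakes, since Ddit3, Atf4 and Trib3, listed below, also had it. Tsc1, the remaining brake that was higher after DHA with groups apart, did not have it. Its vehicle replicate 1 was the lowest vehicle array (8.48) and its DHA replicate 2 the highest DHA array (8.66). Prkab1, higher after DHA with groups apart, did not have it either, as vehicle replicate 3 was its highest vehicle array. How many of all genes have this order was not counted. Relative to the vehicle mean, DHA replicates 1, 2 and 3 were higher by 1.98, 1.63 and 1.98 for Sesn2, by 1.13, 0.79 and 1.02 for Ddit4, and by 0.60, 0.38 and 0.50 for Eif4ebp1. Sesn1 was also nearest to vehicle in DHA replicate 2, with -0.39, -0.22 and -0.34. Of the 7 genes whose groups did not overlap, DHA replicate 2 was the DHA array nearest to vehicle in 4 and DHA replicate 3 in the other 3. Vehicle replicate 3 and DHA replicate 2 carry the same unexplained number in their titles. Between these arrays alone, the difference was 1.88 for Sesn2, 1.07 for Ddit4, 0.46 for Eif4ebp1 and -0.13 for Sesn1. With a term for that number, limma gave Sesn2 an adjusted p of 0.00386, and without both arrays its change was 1.85 with an adjusted p of 0.243.

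**Figure D3:**
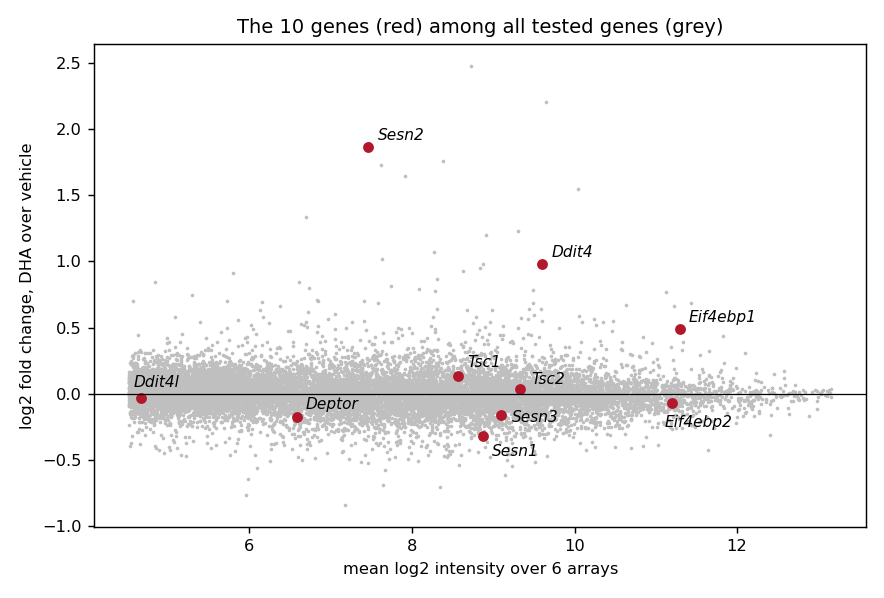
Log2 fold change (DHA over vehicle) against the mean log2 intensity over 6 arrays for all 15526 tested genes (grey), with the 10 genes in red. Sesn2 and Ddit4 stand clear of most genes, and Eif4ebp1 had the 88th largest rise. The rest of the 10 lie in or near the main cloud.

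The promoters of Sesn2 and Ddit4 are shown because these genes had the largest upward differences, and that of Sesn1 because it had the largest downward one. The 250 bases before the annotated start are taken from RefSeq (GRCm38.p6) and run 5′ to 3′ on the strand of the gene. Capitals mark matches, on either strand, to any of 5 motifs that were searched. In these stretches they are CCACG, known as part of the ER stress element, and ACGTGC, a form of the hypoxia element. Sesn2 is at chr4:132510457-132510706 (minus strand), Ddit4 at chr10:59951771-59952020 (minus strand), and Sesn1, which has 2 annotated starts, is shown before the one whose window holds CCACG, at chr10:41887189-41887438 (plus strand).
Sesn2: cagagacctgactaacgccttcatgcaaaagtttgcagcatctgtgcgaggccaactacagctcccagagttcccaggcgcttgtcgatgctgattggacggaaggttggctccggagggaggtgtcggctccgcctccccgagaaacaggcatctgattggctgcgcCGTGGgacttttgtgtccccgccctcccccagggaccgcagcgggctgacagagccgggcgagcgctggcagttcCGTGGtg
Ddit4: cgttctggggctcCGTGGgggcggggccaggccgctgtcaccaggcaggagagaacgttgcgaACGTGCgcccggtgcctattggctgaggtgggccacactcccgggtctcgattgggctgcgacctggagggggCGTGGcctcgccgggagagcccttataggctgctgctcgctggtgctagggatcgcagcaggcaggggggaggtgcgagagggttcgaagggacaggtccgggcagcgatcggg
Sesn1: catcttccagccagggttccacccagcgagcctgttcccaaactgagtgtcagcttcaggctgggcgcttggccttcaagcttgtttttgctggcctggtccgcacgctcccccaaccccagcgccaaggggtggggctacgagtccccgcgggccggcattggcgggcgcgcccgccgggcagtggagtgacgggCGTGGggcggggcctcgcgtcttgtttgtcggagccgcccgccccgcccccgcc

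Promoter windows that run from 250 bases before the start to 50 after it were found for 8 of the 10 genes, as 9 windows. TGATGNAA, the core of the element bound by ATF4 with CHOP or C/EBP partners, was in 0 of the 9 and in 3.97% of 32851 windows of that length. The cyclic AMP response element TGACGTCA was in 0 of 9 and in 1.79%. CCACG was in 3 windows, those of Sesn2, Ddit4 and Sesn1, and in 32.8% of all. Sesn2 and Ddit4 held it 2 times each, and how many of all windows do so was not counted. ACGTGC was in the Ddit4 window alone, 187 bases before the start, and in 5.91% of all. The FOXO element GTAAACA was in 1 window of Sesn1 alone, at base 23 counted from the other start, and in 3.65% of all. The motifs do not overlap one another in the sequences shown, and a missing match says only that these letters are not in these windows.

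The rest of the pathway was read in 9 lists of genes around mTORC1, of which 84 genes were tested. Limma called 1 of the 84, Ddit3 of the transcription factor list, and it was higher. Of the 84, 42 were higher and 42 lower, with a median log2 fold change of 0.0021. Over all genes 0.0837% were called higher. Groups did not overlap in 10 upward and 7 downward, 11.9% and 8.33% of the 84, against 7.64% and 8.19% of all genes.

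**Figure D4:**
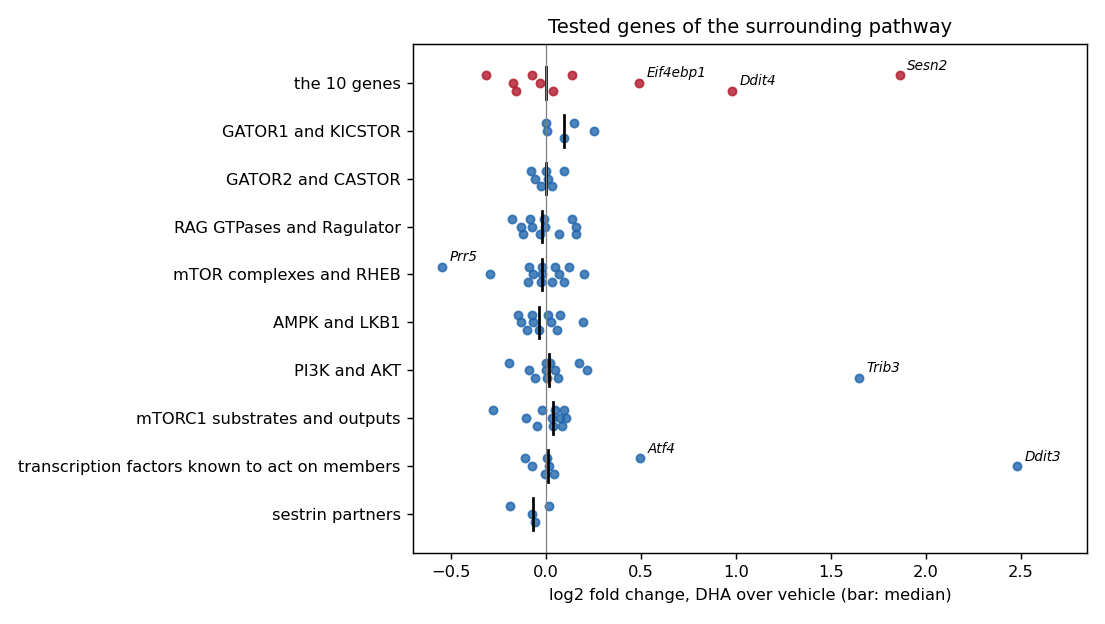
Log2 fold change (DHA over vehicle) of the 10 genes (red) and of the tested genes in 9 lists around mTORC1 (blue), with a bar at each median and names beyond 0.45. Medians of the lists lie between -0.067 and 0.096, and Ddit3, Trib3, Atf4 and Prr5 stand apart from theirs.

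The amino acid branch, on which sestrins act, showed small differences. Of the GATOR1 and KICSTOR genes, whose products switch off the RAG GTPases, 0 of 5 were called, 4 were higher, and the median was 0.096. Itfg2, a KICSTOR subunit, went from 8.35 to 8.60 (0.25, SE 0.073; limma adjusted p = 0.259), with groups that did not overlap. Nprl3 and Nprl2, of GATOR1, had log2 fold changes of 0.15 and 0.096, and Kptn, of KICSTOR, had 0.0071. The groups of Nprl3 did not overlap, while those of Nprl2 and Kptn did. Of the GATOR2 and CASTOR genes, which include the complex that sestrins bind, 0 of 7 were called and the median was -0.00064. Their range ran from -0.081 for Seh1l to 0.094 for Castor2, a relative of the arginine sensor CASTOR1, and Sec13 and Mios had -0.056 and 0.030. In the RAG GTPase and Ragulator list, 0 of 12 were called (median -0.022). Flcn, folliculin, had 0.16, the Ragulator subunits Lamtor3 and Lamtor2 had 0.14 and -0.13, and the lysosomal arginine sensor Slc38a9 had 0.16. The groups of Flcn and Lamtor3 did not overlap, while those of Lamtor2 and Slc38a9 did.

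In the list of the mTOR complexes and RHEB, 0 of 14 were called and the median was -0.020. Prr5, a subunit of the second complex, mTORC2, was at 9.54, 9.44 and 9.52 with vehicle and at 8.90, 9.07 and 8.89 with DHA. Its groups were well apart, and the difference of -0.55 (SE 0.063) narrowly missed the threshold (limma adjusted p = 0.0636). It was called lower in 6 of 16 alternatives. Tbc1d7, the third subunit of the TSC complex, had -0.30 (SE 0.13; limma adjusted p = 0.416) with overlapping groups, and Tti2 and Mapkap1 had 0.20 and -0.10. Of AMPK, a kinase that activates TSC2, and its activator LKB1, 0 of 11 genes were called (median -0.039). Prkab1, a regulatory subunit of AMPK, had 0.19 (limma adjusted p = 0.265), Prkaa2 -0.13, Prkag2 -0.15 and Cab39 0.073.

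Of the PI3K and AKT genes, upstream of the TSC complex, 0 of 12 were called and the median was 0.014. Trib3, a pseudokinase reported to inhibit AKT, went from 7.09 ± 0.23 to 8.73 ± 0.36 (SD, n = 3 per group), a difference of 1.65 (SE 0.20; limma adjusted p = 0.0636). It was called higher in 6 of 16 alternatives. Akt1 itself had -0.20 with groups that did not overlap (limma adjusted p = 0.354), and Phlpp1 and Pik3r1 had 0.17 and -0.088. Of mTORC1 substrates and outputs, 0 of 11 were called (median 0.037). Ulk1, the autophagy kinase that mTORC1 holds inactive, was at 8.77, 8.70 and 8.73 with vehicle and at 8.35, 8.48 and 8.52 with DHA. Its arrays were all lower after DHA, and the difference of -0.28 (SE 0.058) did not pass (limma adjusted p = 0.141). Maf1, a repressor of RNA polymerase III, had -0.11, the lysosomal gene regulator Tfeb 0.084 and Rps6kb2 0.10.

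Of 9 transcription factors known to act on these brakes in other settings, 8 were tested, 1 was called and the median was 0.0094. The factor not tested was p53, as its gene Trp53 had no probe set of its own. Ddit3, which encodes CHOP, rose from 7.48 ± 0.13 to 9.96 ± 0.35 (SD, n = 3 per group; limma adjusted p = 0.0225). Like Sesn2, it lost its call when any array but DHA replicate 2 was left out. Without vehicle replicate 1, 2 or 3 its change was 2.55, 2.47 and 2.42 (limma adjusted p = 0.0811, 0.239 and 0.116), and without DHA replicate 1 or 3 it was 2.39 and 2.37 (limma adjusted p = 0.277 and 0.226). Atf4 was at 9.12, 9.09 and 8.97 with vehicle and at 9.64, 9.46 and 9.56 with DHA, a difference of 0.50 (SE 0.067; limma adjusted p = 0.0660), and it was called higher in 4 of 16 alternatives. Nfe2l2 had -0.11 and Xbp1 -0.077. Of sestrin partners, 0 of 4 were called (median -0.067). Keap1, the adaptor through which NRF2 is degraded, had -0.19 (limma adjusted p = 0.321), Cul3 -0.077, Srxn1 -0.058 and the autophagy receptor Sqstm1 0.014.

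The genes most like Sesn2 over the 6 arrays were found by the root mean square difference of their profiles, each taken relative to its own vehicle mean. They were Nupr1 (0.085), Egr1 (0.085), Atf3 (0.13), Trib3 (0.23) and Cd69 (0.25). Their log2 fold changes ran from 1.55 for Cd69 to 1.90 for Egr1 (limma adjusted p from 0.0225 to 0.0636). Since likeness to the profile chose them, their order of arrays and their changes were largely set by that choice. Nothing is read from either. Those most like Sesn1 were Mapkapk2 (0.032), Rhof (0.041), Abhd8 (0.045), Uqcr11 (0.045) and Trappc1 (0.045). Their log2 fold changes ran from -0.37 for Trappc1 to -0.30 for Mapkapk2, and none of these 5 was called (limma adjusted p from 0.126 to 0.223). These values too were largely set by likeness to Sesn1, itself not called, and nothing is read from them.

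**Figure D5:**
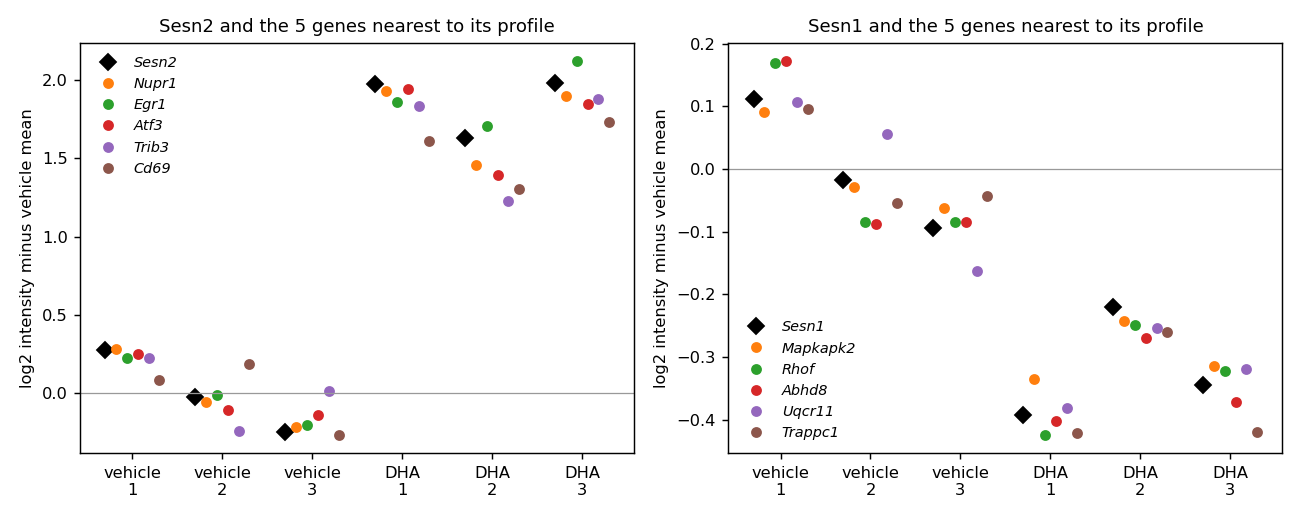
Log2 intensity relative to the vehicle mean on each array for Sesn2 (left) and Sesn1 (right), black diamonds, with the 5 genes of the nearest profile in each case as coloured points. The coloured points lie near the diamonds because closeness to them chose the genes.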

How the data were processed

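Gene expression was measured on 6 arrays, 3 per group, and samples were grouped by the agent in the labels. The deposited table holds the authors' log2 intensities per probe set, and RMA and Partek version 6.6 are named, per the submitters' processing notes; the sources used here do not give settings, order or genome build. Probe sets with 1 gene in the platform annotation (23521 of 41345) were named, with symbols updated to RefSeq (GRCm38.p6). The brightest probe set stood for a gene, and genes under the 30th percentile of gene means were left out. Groups were compared with limma (version 3.58.1, R version 4.3.3; two-sided, 4 residual and 2.77 prior degrees of freedom), a procedure tested on simulated data. With 3 arrays per group, their number limits the precision. Of the 97 listed pathway genes, 13 had no tested probe set and were not analysed here. The genes named in each list were up to 4 with the smallest p and any called. The 10 members, the lists and the tests were chosen with earlier results of these data known. Alternatives were leaving out arrays, other filters, scalings, probe set rules and variance settings, testing each probe set, and a term for a shared title number.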

Additional observations from a re-analysis of the deposited data

How the results depend on the processing

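No paired analysis was possible because the replicate numbers came from accession order, and a shared title number joined only 1 vehicle and 1 DHA sample. Leaving out 1 array gave 0 to 23 called genes in place of 14, 0 or 1 of the 10 brakes, 0 to 3 of the pathway genes, and a Sesn2 log2 fold change of 1.74 to 2.00. The 5 omissions that gave 0 calls left 1356 to 1709 genes at an unadjusted limma p under 0.05. Without both samples that share the title number, 0 genes, 0 brakes and 0 pathway genes were called (1564 genes at an unadjusted limma p under 0.05), and Sesn2 had 1.85. With no filter, 5 genes were called. The 50th percentile filter gave 62 genes, 2 brakes and 4 pathway genes, quantile normalization 63, 2 and 4, and trended, robust variances 62, 2 and 4, the second brake being Eif4ebp1 each time. Median centring gave 52 genes and 3 pathway genes, and the title term 41 and 4, with 1 brake in both. At an adjusted p of 0.1, 2 brakes were called, the second being Eif4ebp1. It ranked 68th of all genes by p, so this threshold passes at least 68 genes, against 14 at 0.05. Testing each probe set gave 16 probe sets and 1 brake. Some of these alternatives hold fewer samples or genes by construction, and otherwise the cause was not tested. Signs turned for Ddit4l without both samples that share the title number (0.0015) and for Tsc2 on leaving out 1 array (-0.0054 to 0.079). The other 8 brakes kept their sign in each alternative, and the count of brakes whose groups do not overlap stayed within 1.5 times of 7 under the scalings and probe set rules.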
